A study of Mus musculus with 16 samples.

Results

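Collagens are the main structural proteins of the extracellular matrix, and their transcripts were described here by RNA-seq in 6DT1, a cell line from a mouse mammary cancer. The members were all genes of the deposited count table whose symbol has the form Col, a number, the letter a and a number. There were 40 such genes among 25745, and 28 of them passed the filter on low counts that left 14445 genes in the tests. The 4 groups, of 4 libraries each, were cells transduced with a lentivirus made to express CLIC4, an intracellular chloride channel family protein, and cells transduced with an empty vector. Hydrogen peroxide (H2O2) was added at 1 µM for 24 h to cells of each kind in the treated groups, and the strain of origin is labelled FVB/N1. The labels disagree on the genotype, since the sample descriptions name the empty-vector cells a CLIC4 knockout and the lentivirus cells wild type, whereas the text of the series speaks of vectors alone. The promoter driving the transgene, and whether a line is a clone, are not stated by the labels. The labels do not tell whether libraries are separate cultures, so the p-values reflect the spread among these libraries only, which may be technical.

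Total counts a library ran from 47.1 M to 61.9 M. Clic4 itself was at 222 to 244 CPM (counts scaled to library size, with TMM factors) in untreated lentivirus libraries and 230.3 to 258 in treated ones, against 39.5 to 45.1 in treated empty-vector libraries. Libraries 9, 10 and 12 of the untreated empty-vector group held 41.5, 41.2 and 44.7 CPM, and library 11 of that group held 138. Library 11 stood apart from its group throughout, with correlations over genes of 0.925 to 0.926 with its 3 group mates, where every other pair within a group reached 0.99777 or more. Its values are therefore printed separately below, and changes of the tested collagen genes in untreated cells are given with and without it. Of markers of the labelled epithelial origin, the keratin Krt8 was at 371 to 632 CPM, but Epcam and Cdh1, which also define epithelium, were at 0 to 13.0 and 0 to 1.53 CPM, their highest values both in library 11.

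Collagen chains are made in the endoplasmic reticulum, where prolines and lysines are hydroxylated before chains of matching types wind into a rod-like helix. Fibrillar collagens are then trimmed outside the cell and packed into cross-linked fibrils, while type IV chains form the sheet of basement membranes, and transmembrane collagens stay anchored in the plasma membrane. Many types need partner chains: Col1a1 with Col1a2, Col4a1 with Col4a2, Col4a5 with Col4a6 or other type IV chains, and Col6a1 with Col6a2 and a further type VI chain. In mammary tissue the basement membrane separates epithelium from stroma, and fibroblasts make most of the fibrillar collagen.

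Promoter windows of 6 members are printed because these genes carry the contrasts described below: the neighbouring chain pairs of type IV collagen, whose partners differed in level and change, and Col5a3 and Col8a1, picked after their values were seen for the smallest adjusted p and the largest change in untreated cells. Each window runs from 250 bases before to 50 bases after the annotated start, 5′ to 3′ on the gene's strand, from RefSeq on GRCm38.p6. Col4a1 (gene at chr8:11198423-11312826, minus strand, mm10, GENCODE vM21) and Col4a2 (chr8:11312805-11449287, plus strand) start head to head. Their windows, chr8:11312777-11313076 and chr8:11312555-11312854, share 78 bases, chr8:11312777-11312854, which are in capitals and are reverse complements of each other:
Col4a1: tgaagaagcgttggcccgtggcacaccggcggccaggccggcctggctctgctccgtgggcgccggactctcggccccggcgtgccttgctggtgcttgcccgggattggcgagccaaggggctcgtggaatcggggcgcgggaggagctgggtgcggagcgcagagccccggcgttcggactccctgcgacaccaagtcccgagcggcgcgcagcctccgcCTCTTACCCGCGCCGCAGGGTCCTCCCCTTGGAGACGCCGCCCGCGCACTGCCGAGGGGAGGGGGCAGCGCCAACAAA
Col4a2: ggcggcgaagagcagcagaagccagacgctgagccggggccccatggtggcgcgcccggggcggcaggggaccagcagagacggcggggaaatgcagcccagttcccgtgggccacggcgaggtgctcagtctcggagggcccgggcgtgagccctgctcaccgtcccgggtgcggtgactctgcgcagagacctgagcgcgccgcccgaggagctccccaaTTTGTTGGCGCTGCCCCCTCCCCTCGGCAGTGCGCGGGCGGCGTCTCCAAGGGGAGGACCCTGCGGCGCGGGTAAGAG

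Col4a6 (chrX:141165403-141474076, minus strand) and Col4a5 (chrX:141475385-141689234, plus strand) also lie head to head, with 842 bases between their windows at chrX:141474027-141474326 and chrX:141475169-141475468. Col5a3 (chr9:20770050-20815067, minus strand) and Col8a1 (chr16:57624258-57754737, minus strand) have windows at chr9:20815018-20815317 and chr16:57754688-57754987. In these 4 sequences the capitals mark matches on either strand to CCAAT or to the GC box GGGCGG:
Col4a6: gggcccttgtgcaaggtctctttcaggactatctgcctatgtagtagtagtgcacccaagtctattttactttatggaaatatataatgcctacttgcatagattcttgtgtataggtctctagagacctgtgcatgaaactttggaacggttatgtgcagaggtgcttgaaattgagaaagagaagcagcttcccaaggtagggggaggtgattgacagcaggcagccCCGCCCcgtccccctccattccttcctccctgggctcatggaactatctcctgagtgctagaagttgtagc
Col4a5: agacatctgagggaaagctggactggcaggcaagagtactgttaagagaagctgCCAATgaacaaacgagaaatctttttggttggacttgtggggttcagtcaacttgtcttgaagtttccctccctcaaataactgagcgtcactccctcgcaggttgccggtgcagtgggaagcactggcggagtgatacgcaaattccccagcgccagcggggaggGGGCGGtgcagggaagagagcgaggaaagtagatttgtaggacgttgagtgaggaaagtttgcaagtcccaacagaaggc
Col5a3: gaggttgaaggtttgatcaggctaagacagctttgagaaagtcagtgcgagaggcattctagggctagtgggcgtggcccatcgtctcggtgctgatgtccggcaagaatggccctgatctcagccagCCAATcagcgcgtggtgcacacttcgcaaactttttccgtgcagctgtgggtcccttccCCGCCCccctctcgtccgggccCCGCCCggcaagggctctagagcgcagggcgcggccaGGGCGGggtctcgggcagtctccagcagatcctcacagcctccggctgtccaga
Col8a1: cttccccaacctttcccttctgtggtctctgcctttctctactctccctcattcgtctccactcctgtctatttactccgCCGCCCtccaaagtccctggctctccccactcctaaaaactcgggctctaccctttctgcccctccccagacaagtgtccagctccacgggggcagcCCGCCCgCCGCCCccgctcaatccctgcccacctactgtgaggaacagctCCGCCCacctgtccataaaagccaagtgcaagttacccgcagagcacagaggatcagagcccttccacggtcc

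Windows were found for 33 of the 40 members (36 windows, as some genes have more than 1). Searched on both strands, with overlapping matches allowed, GGGCGG occurred in 22 of the 36 member windows, in 21 of the 33 genes. Of all 32851 promoter windows of this length 35.7% held it. CCAAT occurred in 13 member windows (37.4% of all windows), the TATA box TATAAA in 5 (13.6%) and the AP-1 motif TGANTCA in 1, that of Col6a1 (7.81%). Median GC content was 59.9% over the member windows and 52.7% over all windows. These matches describe the sequence alone.

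The first comparison asked how collagen transcripts differed between empty-vector and lentivirus cells, separately without and with H2O2. Below, higher and lower always mean in the empty-vector cells relative to the lentivirus cells, and a gene is called when edgeR's quasi-likelihood test gave a Benjamini-Hochberg adjusted p under 0.05 over all genes tested. In untreated cells 14 of the 28 tested members were higher and 10 lower, where 29.0% of all tested genes were higher and 24.3% lower, 53.3% together. Without library 11, 13 were higher and 10 lower, against 37.0% and 37.3% of all genes (74.4% together), and 23 of the calls were shared with the fit on all libraries. In H2O2 cells 10 were higher and 11 lower, against 22.1% and 20.0% of all genes (42.1% together). Without library 11 these were 11 and 12, against 36.6% and 37.2% (73.8% together). The same 10 genes were higher in both comparisons and the same 10 were lower in both. The CPM ranges of the untreated groups did not overlap for 20 of the 28 members, where 49.6% of all tested genes had such ranges, and those of the H2O2 groups for 22, against 69.4%. Without library 11 the ranges did not overlap for 23 members untreated (71.8% of all tested genes) and 22 under H2O2 (69.1%). The median log2 change of the members was 0.33 in untreated (0.23 without library 11) and 0.08 in H2O2 cells, and that of all tested genes 0.03 and -0.01. In bulk RNA, fewer cells of a type and less RNA per cell cannot be told apart.

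**Figure D1:**
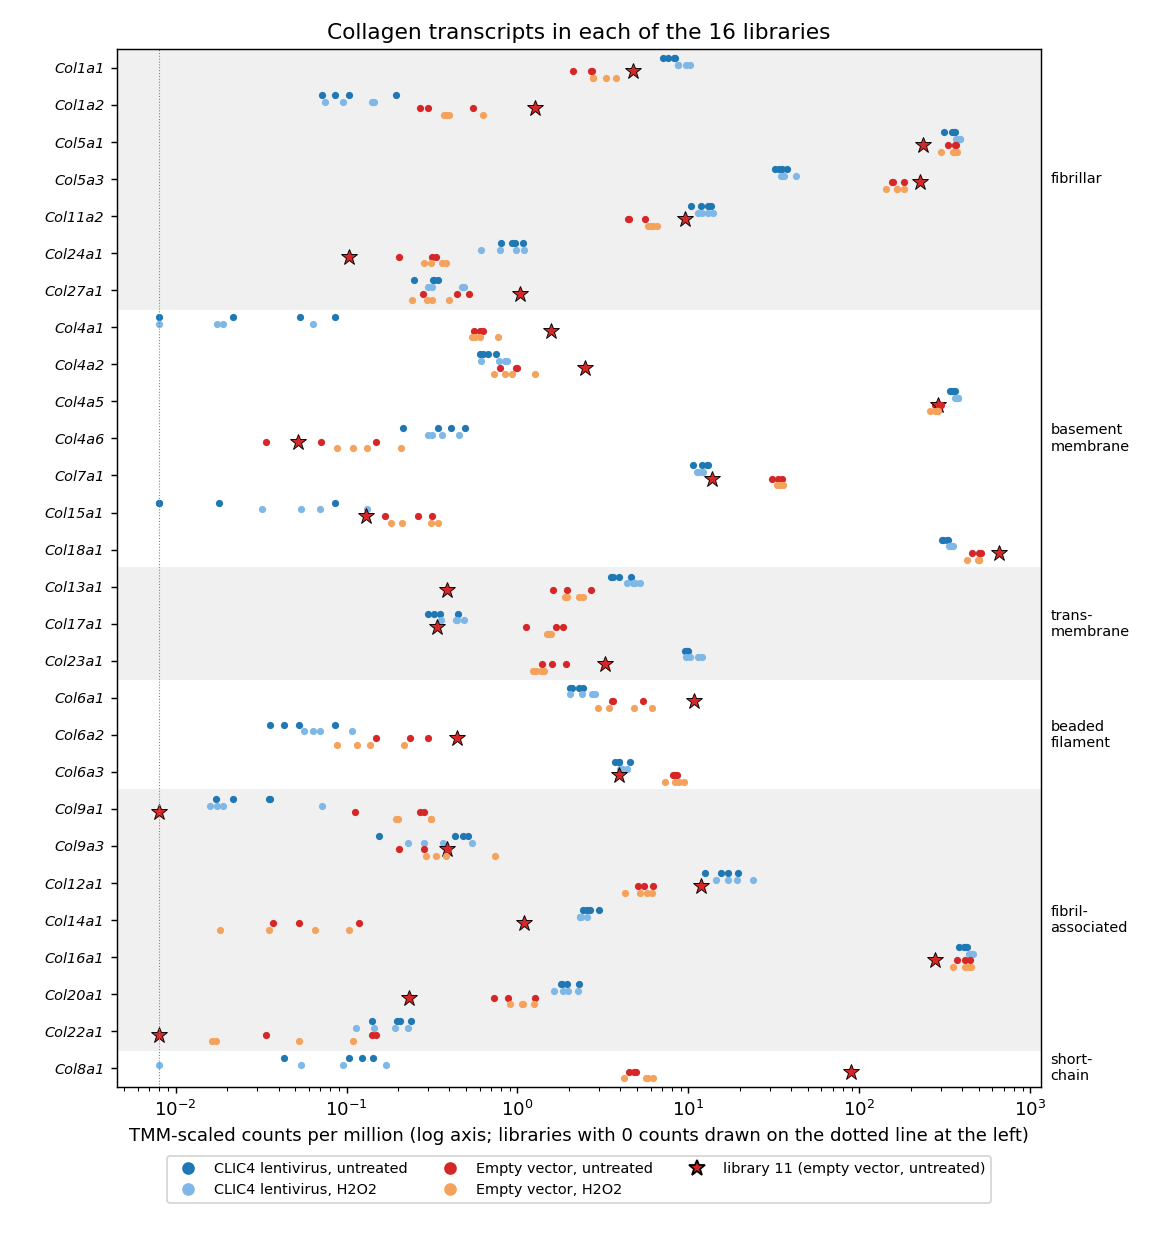
TMM-scaled CPM (log axis) of the 28 tested collagen genes, with 1 point a library, coloured by group, and library 11 as a star; libraries with 0 counts sit on the dotted line at the left. Col5a3, Col18a1, Col7a1 and Col8a1 lie to the right in empty-vector libraries and Col23a1 and Col14a1 to the left, while Col5a1 and Col16a1 overlap between vectors.

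Most collagen RNA came from a few genes. On the FPKM scale, which divides by gene length and so allows genes to be compared, Col16a1 averaged 133 ± 3.92 (SD, n = 4) in untreated lentivirus libraries, Col18a1 70.8 ± 1.78, Col4a5 68.7 ± 1.23 and Col5a1 42.4 ± 2.37. These 4 made up 38.8%, 20.6%, 20.0% and 12.3% of the summed collagen FPKM there, as group means of the share. In untreated empty-vector libraries the shares were 32.0%, 28.9%, 13.7% and 9.97%, and that of Col5a3 was 7.71%, against 1.71% in lentivirus libraries. Without library 11 these 5 shares were 34.8%, 26.3%, 13.7%, 10.9% and 7.11%. The summed collagen level ran from 1443 to 1584 CPM in untreated lentivirus libraries and from 1663 to 1883 in untreated empty-vector libraries, with no overlap. Under H2O2 the groups overlapped, since the treated lentivirus libraries held 1647 to 1693 CPM and the empty-vector libraries 1815 to 1852 apart from library 16, which at 1556 lay below all of them. The summed FPKM of library 11 (290.1) lay below that of every lentivirus library.

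Several usual partner chains of abundant members were scarce, with Col5a3 an exception. Col5a1, at 38.9 to 44.0 FPKM in untreated lentivirus libraries, is the core chain of type V collagen, which seeds fibrils, and its usual partner Col5a2 was at 0 to 0.0100 FPKM in the same libraries and 0.0200 to 0.0600 in untreated empty-vector libraries. Col5a3, which can join Col5a1, averaged 5.89 ± 0.340 FPKM (SD, n = 4) in untreated lentivirus and 28.6 ± 2.32 in untreated empty-vector libraries, where Col5a1 averaged 38.5 ± 12.1. Against 67.6 to 70.4 FPKM of Col4a5 stood 0.0400 to 0.0800 of Col4a6 and 0 to 0.0100 of Col4a4, and Col4a3 was not analysed here. Col4a2, whose usual partner is Col4a1, was at 0.120 to 0.300 FPKM. The Col1a1 mean was 1.48 ± 0.287 FPKM and that of Col1a2 0.0225 ± 0.0126. Low FPKM values follow the counts loosely: library 1 had 3 counts and 0.16 FPKM of Col4a1, and library 10 had 33 counts and 0.12 FPKM.

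**Figure D2:**
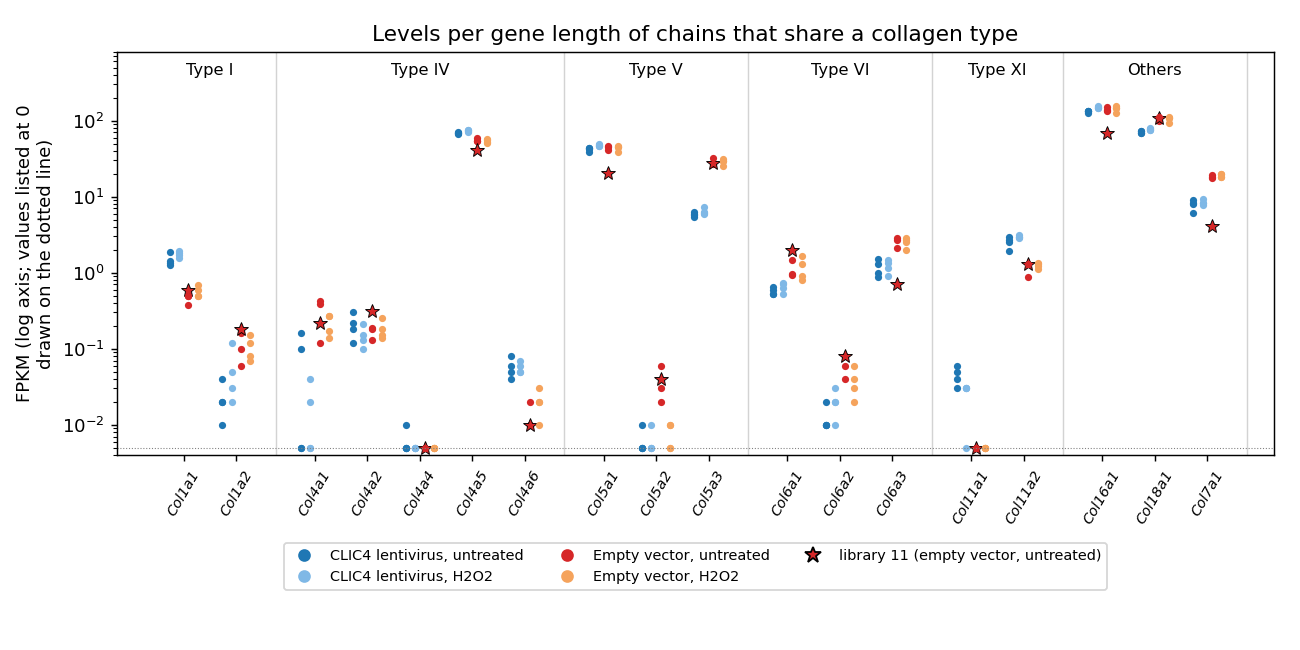
FPKM (log axis) of chains grouped by collagen type, with 1 point a library and library 11 as a star; values listed at 0 sit on the dotted line. Col4a5 and Col5a1 stand far above the other chains of their types in every library, apart from Col5a3 in type V.

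Among the 7 tested fibrillar collagens, 3 were higher and 3 lower in untreated cells, and 2 were higher and 3 lower under H2O2. The counts of this family and of those below stand beside 53.3% of all tested genes called untreated and 42.1% under H2O2. Col5a3, the third type V chain, stood at 33.7, 35.3, 32.0 and 37.6 CPM in untreated and 36.0, 34.9, 35.3 and 42.7 in treated lentivirus libraries. The empty-vector libraries held 157, 156 and 183 CPM, 226 in library 11, and 166, 166, 183 and 143 under H2O2. Every empty-vector library was above every lentivirus library. The log2 change was 2.38 ± 0.12 (SE, adjusted p = 1.83e-09) untreated, 2.26 without library 11, and 2.14 ± 0.12 (SE, adjusted p = 4.77e-09) under H2O2.

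Col5a1 (gene at chr2:27886425-28039514, plus strand) did not pass the test in either comparison. It held 312, 358, 347 and 362 CPM in untreated and 390.0, 387, 378 and 369 in treated lentivirus libraries. Empty-vector libraries had 329.9, 363 and 366 CPM, 235 in library 11, and 358, 372, 355 and 302 under H2O2. The groups overlapped, with library 11 the lowest of all. Its changes were -0.09 ± 0.12 (SE, adjusted p = 0.516) untreated and -0.14 ± 0.12 (SE, adjusted p = 0.38) under H2O2. Without library 11 the untreated value turned to 0.04 ± 0.06 (SE, adjusted p = 0.626), and the H2O2 value was -0.14 ± 0.06 (SE, adjusted p = 0.0498). Reads from the exons it shares on the opposite strand with 2810430I11Rik (99 bases) may be counted to either gene, as strandedness is not given.

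The chains of type I collagen, the chief fibril protein of connective tissue, went in opposite directions. Col1a1 held 7.12, 8.39, 7.57 and 8.21 CPM in untreated and 9.62, 8.69, 10.2 and 8.74 in treated lentivirus libraries. The empty-vector values were 2.12, 2.70 and 2.73 CPM, 4.77 in library 11, and 3.30, 2.78, 3.78 and 2.77 under H2O2. All empty-vector libraries were lower, and the change was -1.35 ± 0.20 (SE, adjusted p = 6.56e-05) untreated, -1.63 without library 11, and -1.56 ± 0.20 (SE, adjusted p = 1.81e-05) under H2O2. Col1a2 was far scarcer, at 0.0714, 0.103, 0.195 and 0.0862 CPM in untreated and 0.0753, 0.144, 0.140 and 0.0955 in treated lentivirus libraries. It stood at 0.547, 0.270 and 0.298 CPM with the empty vector, 1.27 in library 11, and 0.380, 0.397, 0.624 and 0.371 under H2O2. All empty-vector libraries were higher, by 2.33 ± 0.50 (SE, adjusted p = 0.00134) untreated and 1.94 ± 0.49 (SE, adjusted p = 0.00533) under H2O2. Library 11 moved this value by over 1.5-fold, and without it the untreated change was 1.68 ± 0.39 (SE, adjusted p = 0.00067).

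Col11a2, a type XI chain found in cartilage fibrils, was lower. Lentivirus libraries held 10.4, 13.0, 13.5 and 11.8 CPM untreated and 11.4, 14.0, 13.0 and 12.0 under H2O2. The empty-vector libraries held 4.48, 4.45 and 5.58 CPM, 9.54 in library 11, and 6.59, 6.04, 6.23 and 5.83 under H2O2. Library 11 lay between the groups, below every lentivirus library. The change was -1.02 ± 0.20 (SE, adjusted p = 0.000681) untreated, -1.33 without library 11, and -1.03 ± 0.20 (SE, adjusted p = 0.000736) under H2O2. Col24a1, a minor fibrillar chain, held 0.964, 0.928, 0.796 and 1.08 CPM untreated and 0.791, 0.613, 0.982 and 1.10 under H2O2 with the lentivirus. With the empty vector it held 0.335, 0.203 and 0.316 CPM, 0.104 in library 11, and 0.380, 0.362, 0.312 and 0.283 under H2O2. Its groups did not overlap and the change was -1.94 ± 0.29 (SE, adjusted p = 6.26e-05) untreated, -1.72 without library 11, and -1.38 ± 0.28 (SE, adjusted p = 0.000924) under H2O2. Col27a1 ranged from 0.242 to 1.04 CPM, highest in library 11, and its call in untreated cells, 0.86 ± 0.34 (SE, adjusted p = 0.0448), was lost without that library (0.43 ± 0.28 (SE, adjusted p = 0.177)) and on leaving out any other library but 9 and 12, with adjusted p of 0.0501 to 0.108.

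All 7 tested basement membrane collagens were called in untreated cells, 5 higher and 2 lower, and 6 under H2O2, 4 higher and 2 lower. Of all tested genes 53.3% were called untreated and 42.1% under H2O2, or 74.4% and 73.8% without library 11. Col18a1 (gene at chr10:77052178-77166548, minus strand), whose C-terminal piece is the angiogenesis inhibitor endostatin, held 304, 324, 310.3 and 331 CPM in untreated and 337, 348, 333 and 352 in treated lentivirus libraries. The empty-vector values were 457, 501 and 512 CPM, 658 in library 11, and 492, 501, 503 and 428 under H2O2. Every empty-vector library was higher, by 0.75 ± 0.09 (SE, adjusted p = 1.42e-05) untreated, 0.63 without library 11, and 0.49 ± 0.09 (SE, adjusted p = 0.000639) under H2O2. Col7a1, which builds the anchoring fibrils that tie basement membrane to the tissue beneath, held 10.6, 12.0, 12.8 and 13.0 CPM untreated and 11.3, 12.2, 11.3 and 12.0 under H2O2 with the lentivirus. With the empty vector it held 31.0, 33.6 and 35.2 CPM, 13.8 in library 11, and 33.7, 35.7, 34.5 and 33.0 under H2O2. Library 11 lay just above the lentivirus libraries and far below its own group. The change was 1.23 ± 0.21 (SE, adjusted p = 0.000203) untreated, 1.46 without library 11, and 1.55 ± 0.21 (SE, adjusted p = 2.98e-05) under H2O2.

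The type IV chains differed among themselves. Col4a5, the abundant one, held 341, 361, 343 and 354 CPM in untreated and 378, 374, 378 and 363 in treated lentivirus libraries. It held 275, 282 and 300.2 CPM with the empty vector, 289 in library 11, and 289, 285, 277 and 259 under H2O2. All empty-vector libraries were lower, library 11 among them, with changes of -0.29 ± 0.05 (SE, adjusted p = 0.000222) untreated, -0.29 without library 11, and -0.43 ± 0.05 (SE, adjusted p = 5.87e-06) under H2O2. Its neighbour Col4a6, whose promoter window is printed above with that of Col4a5, held 0.214, 0.344, 0.495 and 0.409 CPM in untreated and 0.301, 0.361, 0.456 and 0.318 in treated lentivirus libraries. The empty-vector values were 0.0706, 0.0338 and 0.149 CPM, 0.0518 in library 11, and 0.109, 0.207, 0.131 and 0.0883 under H2O2. The groups did not overlap, and the change was -2.22 ± 0.41 (SE, adjusted p = 0.000406) untreated, -2.11 without library 11, and -1.41 ± 0.37 (SE, adjusted p = 0.00672) under H2O2.

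Col4a1 and Col4a2, the chains of the ubiquitous basement membrane network, start within the same 78 shared promoter bases. Col4a1 held 0.0536, 0.0860, 0 and 0.0215 CPM in untreated and 0.0188, 0, 0.0175 and 0.0636 in treated lentivirus libraries, 9 and 6 counts in all. The empty-vector libraries held 0.600, 0.558 and 0.632 CPM, 1.58 in library 11, and 0.543, 0.604, 0.772 and 0.565 under H2O2. It was higher in all empty-vector libraries, by 4.26 ± 0.62 (SE, adjusted p = 5.62e-05) untreated, 3.78 without library 11, and 4.46 ± 0.66 (SE, adjusted p = 6.92e-05) under H2O2. Leaving out library 2 moved the untreated value to 4.93, and leaving out library 8 the H2O2 value to 5.44. Col4a2 held 0.750, 0.602, 0.672 and 0.625 CPM in untreated and 0.866, 0.775, 0.614 and 0.843 in treated lentivirus libraries. Empty-vector libraries had 0.988, 0.794 and 0.986 CPM, 2.49 in library 11, and 0.924, 0.725, 1.27 and 0.848 under H2O2. It was higher in untreated cells, by 0.97 ± 0.31 (SE, adjusted p = 0.0184) with all libraries and 0.48 ± 0.21 (SE, adjusted p = 0.0446) without library 11, and its H2O2 groups overlapped (0.28 ± 0.31 (SE, adjusted p = 0.515)). The exons of the chains overlap by 22 bases on opposite strands, so a few reads could be counted to either. Col15a1, a basement membrane proteoglycan related to Col18a1, was low, at 0.0179, 0.0860, 0 and 0 CPM in untreated and 0.132, 0.0541, 0.0701 and 0.0318 in treated lentivirus libraries. It held 0.318, 0.169 and 0.260 CPM with the empty vector, 0.130 in library 11, and 0.181, 0.311, 0.345 and 0.212 under H2O2. All empty-vector libraries were higher than those of the matching lentivirus group, by 2.92 ± 0.68 (SE, adjusted p = 0.00253) untreated, 3.07 without library 11, and 1.86 ± 0.57 (SE, adjusted p = 0.0168) under H2O2. The untreated value was 4.71 without library 2, and the H2O2 call was lost without library 6, 8 or 15, with adjusted p of 0.0512, 0.0593 and 0.0501.

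Of the 3 tested transmembrane collagens, 1 was higher and 2 lower in both comparisons. Col23a1, which is shed from the cell surface by proteases, held 9.87, 9.70, 9.90 and 9.61 CPM in untreated and 11.4, 12.1, 10.2 and 9.72 in treated lentivirus libraries. The empty-vector libraries held 1.59, 1.39 and 1.93 CPM, 3.27 in library 11, and 1.38, 1.28, 1.43 and 1.24 under H2O2. No empty-vector library reached the lentivirus range, and the change was -2.27 ± 0.21 (SE, adjusted p = 5.5e-07) untreated, -2.58 without library 11, and -3.03 ± 0.21 (SE, adjusted p = 3.84e-08) under H2O2. Col13a1, a collagen of cell adhesion sites and the neuromuscular junction, held 3.61, 4.62, 3.54 and 3.90 CPM untreated and 5.20, 4.89, 4.37 and 4.76 under H2O2 with the lentivirus. Empty-vector libraries had 1.62, 1.96 and 2.68 CPM, 0.389 in library 11, and 1.94, 2.42, 2.30 and 1.91 under H2O2. It was lower, with library 11 the lowest of all, and the change was -1.22 ± 0.35 (SE, adjusted p = 0.00927) untreated, -0.91 without library 11, and -1.16 ± 0.35 (SE, adjusted p = 0.0137) under H2O2. Col17a1, a hemidesmosome component that anchors basal epithelial cells, held 0.446, 0.327, 0.354 and 0.302 CPM untreated and 0.358, 0.487, 0.438 and 0.446 under H2O2 with the lentivirus. The empty-vector values were 1.85, 1.12 and 1.67 CPM, 0.337 in library 11, and 1.52, 1.48, 1.58 and 1.54 under H2O2. Library 11 sat within the lentivirus range and the other empty-vector libraries were higher. The change was 1.80 ± 0.36 (SE, adjusted p = 0.000885) untreated, 2.10 without library 11, and 1.82 ± 0.36 (SE, adjusted p = 0.000811) under H2O2. The fourth member, Col25a1, had 3 counts over all libraries.

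**Figure D3:**
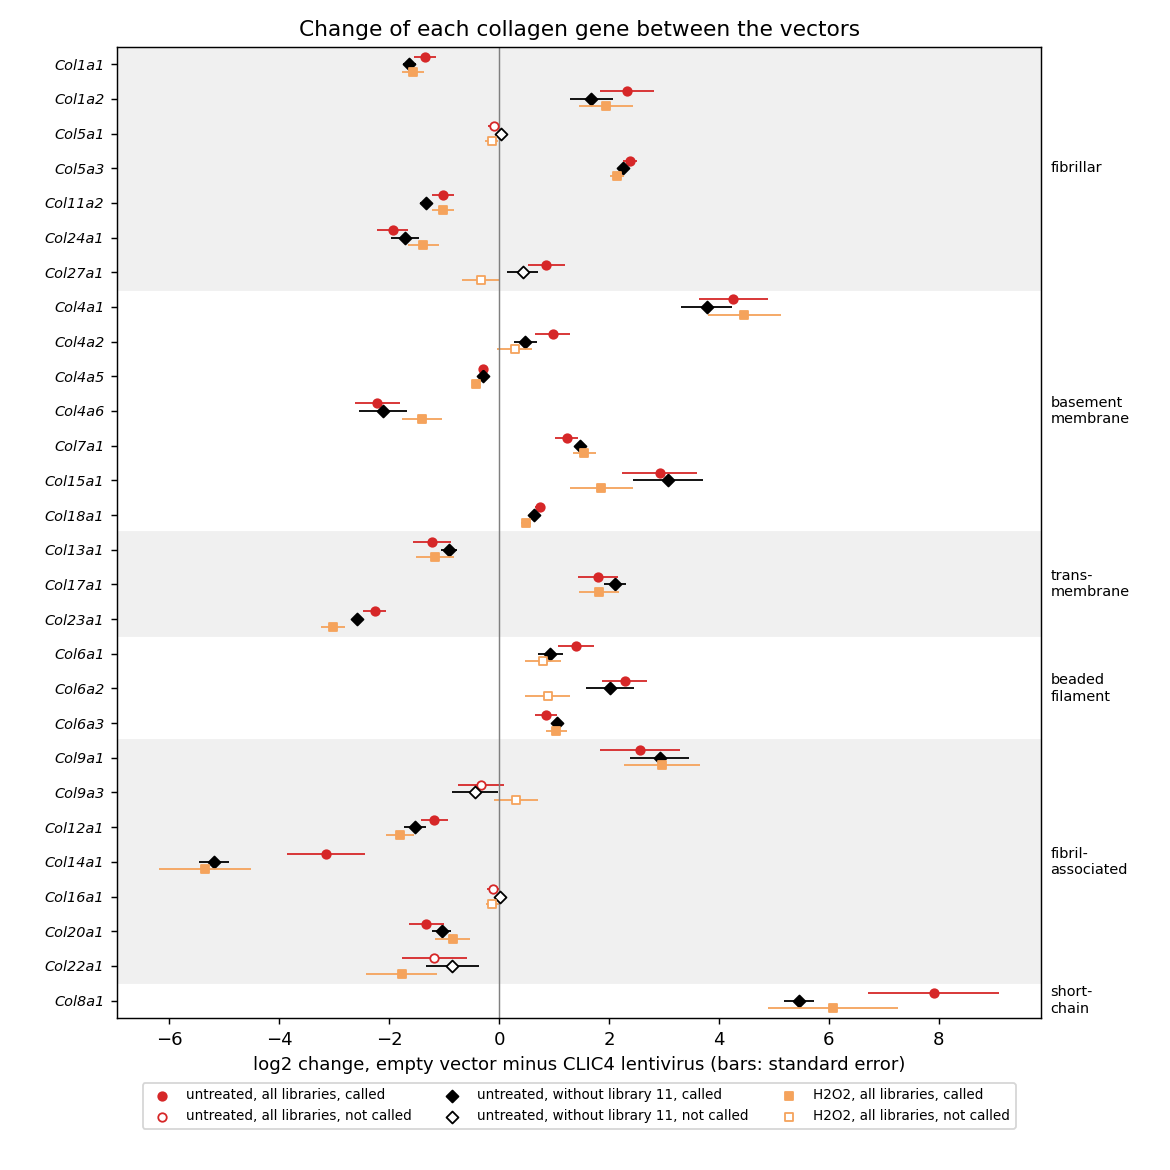
Log2 change of each tested collagen gene, empty vector minus CLIC4 lentivirus, in untreated cells with all libraries (circles), untreated cells without library 11 (diamonds) and H2O2 cells (squares); filled symbols were called and bars are standard errors. Changes run from -5.35 (Col14a1, H2O2) to 7.91 (Col8a1, untreated), and the fibrillar, basement membrane, transmembrane and fibril-associated families hold members on either side of 0.

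All 3 tested chains of type VI collagen, which forms beaded filaments around cells, were higher in untreated cells, where 29.0% of all tested genes were higher. Col6a3 held 3.93, 4.52, 3.91 and 3.70 CPM in untreated and 4.39, 4.09, 3.98 and 4.07 in treated lentivirus libraries. It held 8.33, 8.11 and 8.61 CPM with the empty vector, 3.91 in library 11, and 9.45, 8.32, 8.84 and 7.31 under H2O2. Library 11 fell within the lentivirus range, and the remaining empty-vector libraries were higher, by 0.85 ± 0.19 (SE, adjusted p = 0.00199) untreated with all libraries, 1.05 without library 11, and 1.04 ± 0.19 (SE, adjusted p = 0.000506) under H2O2. Col6a1 held 2.43, 2.29, 2.03 and 2.09 CPM in untreated and 2.39, 2.85, 2.74 and 2.04 in treated lentivirus libraries. With the empty vector it held 3.63, 3.55 and 5.45 CPM, 10.8 in library 11, and 6.14, 4.83, 3.45 and 2.97 under H2O2. Both comparisons had groups that did not overlap, with 1.40 ± 0.33 (SE, adjusted p = 0.00247) untreated, 0.93 without library 11, and 0.80 ± 0.32 (SE, adjusted p = 0.0604) under H2O2. The H2O2 value passed the test without library 11 (0.80 ± 0.21 (SE, adjusted p = 0.00278)), and also without library 9, 10 or 16, with adjusted p of 0.0481, 0.046 and 0.0401. Col6a2 ranged from 0.0357 to 0.0860 CPM in untreated lentivirus to 0.149 to 0.441 in untreated empty-vector libraries, a change of 2.28 ± 0.41 (SE, adjusted p = 0.000329), 2.01 without library 11, and under H2O2 its groups overlapped (0.88 ± 0.41 (SE, adjusted p = 0.0984)).

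Among the 7 tested fibril-associated collagens, which decorate fibrils without forming them, 1 was higher and 3 lower in untreated cells, and 1 was higher and 4 lower under H2O2. The abundant Col16a1 (gene at chr4:130047840-130099283, plus strand) held 384, 424, 409.9 and 413 CPM in untreated and 454, 464, 440.4 and 448 in treated lentivirus libraries. The empty-vector libraries held 374, 418 and 442 CPM, 276 in library 11, and 437, 451, 417 and 352 under H2O2. The groups overlapped, library 11 was the lowest, and the changes of -0.11 ± 0.12 (SE, adjusted p = 0.43) and -0.12 ± 0.12 (SE, adjusted p = 0.434) did not pass the test. Without library 11 the untreated value was 0.01 ± 0.07 (SE, adjusted p = 0.874). Col14a1, known from tendon and skin fibrils, held 3.02, 2.42, 2.65 and 2.56 CPM in untreated and 2.56, 2.36, 2.31 and 2.31 in treated lentivirus libraries. It held 0.0529, 0.118 and 0.0372 CPM with the empty vector, 1.09 in library 11, and 0.0181, 0.104, 0.0657 and 0.0353 under H2O2. All empty-vector libraries were lower, and library 11 lay between the rest and the lentivirus libraries. The change was -3.15 ± 0.70 (SE, adjusted p = 0.00189) untreated with all libraries, -5.19 ± 0.27 (SE, adjusted p = 1.18e-12) without library 11, and -5.35 ± 0.84 (SE, adjusted p = 0.000118) under H2O2.

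Col12a1, a collagen of dense connective tissue, held 12.4, 19.5, 15.5 and 17.1 CPM in untreated and 24.0, 17.0, 19.2 and 14.4 in treated lentivirus libraries. Empty-vector libraries had 5.05, 5.53 and 6.23 CPM, 11.8 in library 11, and 6.12, 5.73, 5.23 and 4.27 under H2O2. It was lower in all empty-vector libraries, library 11 nearest to the lentivirus range, with changes of -1.18 ± 0.25 (SE, adjusted p = 0.00138) untreated, -1.53 without library 11, and -1.80 ± 0.26 (SE, adjusted p = 4.91e-05) under H2O2. Col9a1, a cartilage chain, was near the lower limit of counting, at 0.0357, 0.0172, 0.0354 and 0.0215 CPM in untreated and 0.0188, 0.0721, 0.0175 and 0.0159 in treated lentivirus libraries. The empty-vector values were 0.282, 0.270 and 0.112 CPM, 0 in library 11, and 0.199, 0.311, 0.312 and 0.194 under H2O2. Apart from library 11 the empty-vector libraries were higher, by 2.56 ± 0.73 (SE, adjusted p = 0.00948) untreated with all libraries, 2.92 without library 11, and 2.96 ± 0.69 (SE, adjusted p = 0.00285) under H2O2, the latter 3.71 without library 6. Col20a1 held 1.80, 1.96, 2.30 and 1.83 CPM in untreated and 1.84, 2.27, 1.98 and 1.64 in treated lentivirus libraries. It held 0.882, 0.727 and 1.26 CPM with the empty vector, 0.233 in library 11, and 1.07, 1.24, 0.904 and 1.08 under H2O2. The empty-vector values were all lower, with changes of -1.33 ± 0.32 (SE, adjusted p = 0.00312) untreated, -1.05 without library 11, and -0.85 ± 0.31 (SE, adjusted p = 0.0408) under H2O2. The H2O2 call of Col20a1 was lost on leaving out any 1 library other than 9, 10, 11 and 12, with adjusted p of 0.0508 to 0.109.

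Col22a1, known from tissue junctions such as that of muscle and tendon, ranged from 0 to 0.237 CPM. It was called lower under H2O2 alone (-1.77 ± 0.64 (SE, adjusted p = 0.0374)), against -1.18 ± 0.59 (SE, adjusted p = 0.107) in untreated cells, -0.85 without library 11. That H2O2 call was lost without library 1, 2, 6, 7, 8, 14, 15 or 16, with adjusted p of 0.0505 to 0.113, and the value was -2.48 without library 13. Col9a3 ranged from 0.155 to 0.740 CPM, with -0.33 ± 0.41 (SE, adjusted p = 0.512) untreated, -0.43 without library 11, and 0.30 ± 0.40 (SE, adjusted p = 0.586) under H2O2. The H2O2 value was -0.07 without library 15. Its exons overlap those of Tcfl5 by 234 bases on the opposite strand.

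Col8a1, a short-chain network collagen of vessel walls and the cornea, had the largest change of the members. It held 0.143, 0.103, 0.124 and 0.0431 CPM in untreated and 0.169, 0.0541, 0 and 0.0955 in treated lentivirus libraries. With the empty vector it held 4.52, 4.92 and 4.78 CPM, but 89.3 in library 11, and 5.67, 4.19, 6.23 and 5.83 under H2O2. Every empty-vector library was higher than every lentivirus library, and library 11 was far above all others. The change was 7.91 ± 1.19 (SE, adjusted p = 7.84e-05) untreated with all libraries, 5.46 ± 0.28 (SE, adjusted p = 1.97e-12) without library 11, and 6.08 ± 1.18 (SE, adjusted p = 0.000736) under H2O2, the last 6.69 without library 5.

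The 12 members that did not pass the filter were Col2a1, Col3a1, Col5a2, Col10a1, Col11a1, Col4a4, Col6a4, Col6a5, Col8a2, Col9a2, Col25a1 and Col28a1, each with at most 80 counts over all 16 libraries. A fit with no filter called 4 of them higher (Col3a1, Col5a2, Col6a4 and Col6a5) and 1 lower (Col11a1) in untreated cells. Under H2O2 it called 2 higher (Col3a1 and Col6a4) and 1 lower (Col11a1). The share of all genes called in that fit is not given here, so these counts cannot be set against it. Col11a1, partner of Col11a2, had 15 counts in untreated and 19 in treated lentivirus libraries and 0 in all empty-vector libraries. Set against a floor of 3 counts over a group, it was at least 4.79-fold lower untreated and at least 6.39-fold lower under H2O2. The floor takes the counts above 0 as they stand, and with the error of both counts the exact 95% lower limits were 3.44-fold and 4.71-fold. Col3a1, which forms fibrils with type I collagen, had 36 counts with the empty vector and 3 with the lentivirus untreated, a ratio of 12.5 (exact 95% counting interval 3.96 to 63.5), and 37 and 4 under H2O2, a ratio of 9.16 (3.29 to 35.4). Col5a2 had 40 and 4 counts untreated (27 without library 11) and 8 and 4 under H2O2. Col6a4 had 15 and 0 counts untreated and 9 and 0 under H2O2, and was at least 5.21-fold (exact lower limit 3.74) and at least 2.97-fold higher (1.96). Without library 11 it had 10 and 0 counts untreated, at least 4.27-fold higher. Col6a5 had 16 and 0 counts untreated, at least 5.56-fold higher (exact lower limit 4.02), and 16 and 2 under H2O2, a ratio of 7.93 (1.86 to 71.0). Of the 16 untreated counts of Col6a5 10 were in library 11, and without it the 6 and 0 counts were at least 2.56-fold higher (1.51). The remaining 7 had 0 to 11 counts in any group, and none of them was called. The exact intervals and limits cover counting error only, and neither they nor the floors cover the spread between libraries.

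Library 11 lay outside the range of libraries 9, 10 and 12 for 25 of the 28 tested members (89.3%), where it did so for 92.5% of all tested genes. It was at least 2-fold above their mean for 8 (28.6%) and at least 2-fold below it for 8 (28.6%). Of all tested genes, 18.1% were at least 2-fold above and 26.1% at least 2-fold below. The members farthest above the mean were Col8a1, Col14a1, Col1a2, Col4a2, Col4a1 and Col6a1. Those at least 2-fold below it were Col13a1, Col17a1, Col20a1, Col24a1, Col7a1 and Col6a3, with Col9a1 and Col22a1 at 0. The Clic4 level of library 11, given above, lay between its group mates and the lentivirus libraries. Its TMM factor was 0.7211, against 1.031 to 1.036 for libraries 9, 10 and 12, which raises its CPM values relative to theirs. In FPKM, Col18a1 (106.87) and Col5a3 (27.53) of library 11 lay within the ranges of those libraries, 99.68 to 112.62 and 27.2 to 32.07. In CPM both lay above those ranges. What sets this library apart was not tested.

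**Figure D4:**
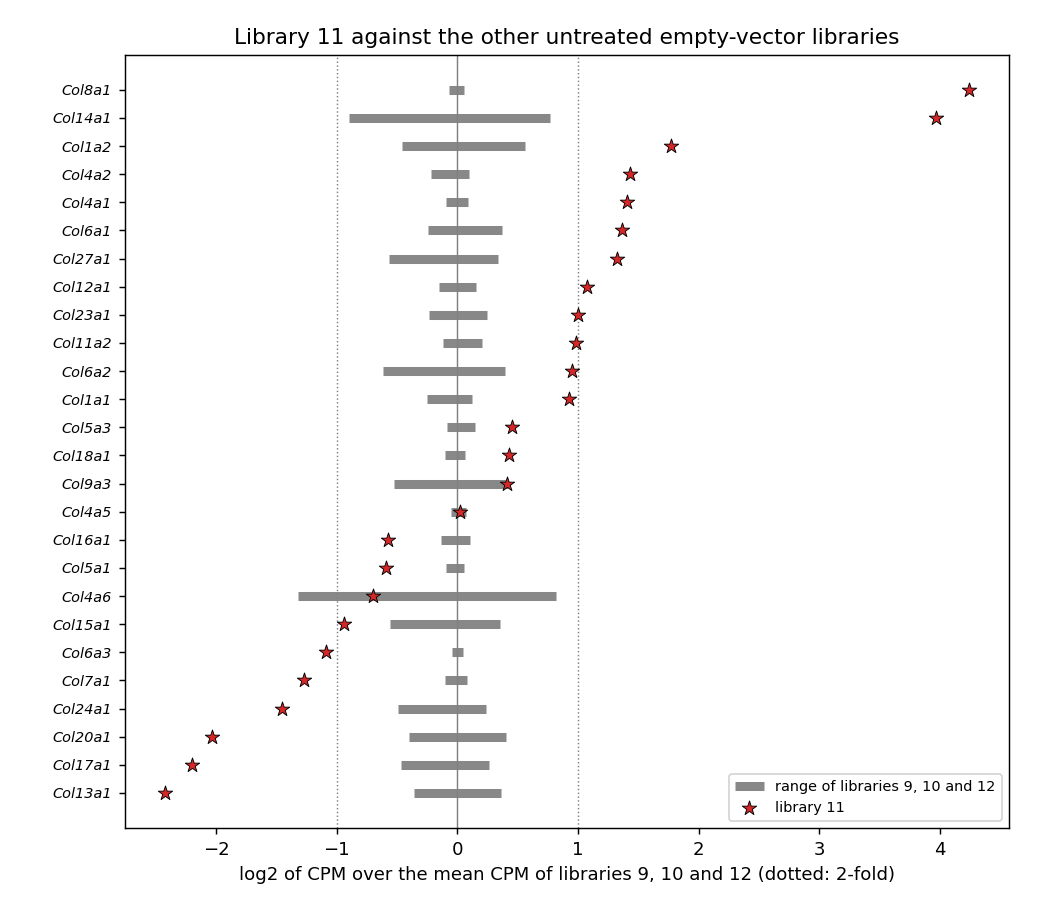
Log2 of the CPM in library 11 over the mean CPM of libraries 9, 10 and 12 (stars), beside the range of these 3 libraries (grey bars), for the tested collagen genes with counts in library 11. Col9a1 and Col22a1, at 0 in library 11, are not drawn; Col8a1 and Col14a1 lie farthest to the right and Col13a1 farthest to the left.

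The other comparisons asked whether H2O2 changed collagen transcripts in either kind of cell. No member was called in any of the 3 tests with edgeR: 0 of 28 in empty-vector cells, 0 of 28 in lentivirus cells and 0 of 28 for the difference of the responses, where 0% of all tested genes were called too. At an unadjusted p under 0.05 there were 5 members among 2120 genes in empty-vector cells, 0 among 255 in lentivirus cells and 3 among 859 for the difference. Without library 11 these were 3 among 1994, 6 among 2135 and 3 among 2391. DESeq2 also called 0 members in each, with 49, 1 and 11 of all genes. Without library 11, edgeR called 0.240% of all genes in empty-vector cells, 0% in lentivirus cells and 0.192% for the difference, again with 0 members. The comparisons share control groups, so their values are not independent.

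Log2 changes with H2O2 ran from -2.36 (Col14a1) to 0.79 (Col4a6) in empty-vector cells, where the smallest adjusted p of a member was 0.339. Without library 11 they ran from -1.12 (Col22a1) to 0.68 (Col4a6), with a smallest adjusted p of 0.126. In lentivirus cells they ran from -0.62 (Col4a1) to 1.30 (Col15a1). The treated and untreated lentivirus groups did not overlap for 5 members, all with the higher values under H2O2, where 11.2% of all tested genes had groups that did not overlap. They were Col16a1, Col18a1, Col1a1, Col4a5 and Col5a1, whose values in each library are given above. Their log2 changes were 0.15, 0.11, 0.25, 0.09 and 0.15. A fit on the 2 lentivirus groups alone called Col16a1 (adjusted p = 0.0420) and 121 of all genes, with adjusted p of 0.0735 for Col18a1, 0.0812 for Col5a1, 0.0839 for Col1a1 and 0.0841 for Col4a5. In empty-vector cells 0 members had groups that did not overlap (6.93% of all tested genes), and 2 had without library 11, Col1a1 and Col11a2 (12.8% of all tested genes).

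Genes that make, export and bind collagen were taken from lists chosen with earlier results of these data known, and their counts stand beside 29.0% higher and 24.3% lower of all tested genes in untreated cells and 22.1% and 20.0% under H2O2. Counts of these lists without library 11 stand beside 37.0% higher and 37.3% lower untreated and 36.6% and 37.2% under H2O2. Up to 4 called genes of a list are named in each comparison. A gene named in 1 comparison only is not thereby unchanged in the other. Of 21 tested genes of chain modification and folding, 11 were higher and 5 lower in untreated cells and 12 higher and 4 lower under H2O2, with median log2 changes of 0.34 (0.22 without library 11) and 0.24. Plod1, a lysyl hydroxylase, rose from 132 to 144 CPM in untreated lentivirus to 341 to 437 in untreated empty-vector libraries, by 1.56 ± 0.07 (SE, adjusted p = 5.28e-10), and by 1.56 under H2O2. Fkbp10, a prolyl isomerase of collagen folding, went from 0.0536 to 0.141 to 4.10 to 9.06 CPM untreated (6.17 ± 0.36 (SE, adjusted p = 7.06e-09)) and changed by 6.86 under H2O2. P4hb, a subunit of prolyl hydroxylase, was higher by 1.08 ± 0.10 (SE, adjusted p = 4.47e-07) untreated and 0.94 under H2O2. The chaperone Hspa5 was higher by 1.75 ± 0.26 (SE, adjusted p = 6.52e-05) untreated (1.28 without library 11), and P4ha3, another prolyl hydroxylase subunit, by 1.18 ± 0.13 (SE, adjusted p = 4.42e-06) under H2O2. Hspa5 under H2O2 held 614 to 672 CPM with the lentivirus and 1362 to 1771 with the empty vector. P4ha3 untreated held 1.66 to 2.14 and 3.32 to 3.77. P3h2, a prolyl 3-hydroxylase singled out after its values were seen, was the lower gene farthest from 0 in this list, at 30.5 to 33.3 CPM in untreated lentivirus libraries, 1.22, 1.39 and 1.15 with the empty vector and 9.98 in library 11. Its changes were -3.26 ± 0.57 (SE, adjusted p = 0.000272) untreated, -4.67 without library 11, and -4.98 ± 0.62 (SE, adjusted p = 1.39e-05) under H2O2. Of 14 tested genes of export from the endoplasmic reticulum, 7 were higher and 4 lower untreated and 6 higher and 1 lower under H2O2, with medians of 0.24 and 0.19. Without library 11, 9 were higher and 4 lower in either comparison. Sec24d, a coat protein of the vesicles that carry procollagen, was higher by 2.00 ± 0.10 (SE, adjusted p = 1.89e-09) untreated and 1.72 under H2O2. The coat protein Sec31a was higher by 0.72 and 0.49, and the retrieval receptor Kdelr2 by 0.73 and 0.72. Tango2 was lower untreated (-0.67 ± 0.11 (SE, adjusted p = 0.000188)), and Sar1b, a GTPase of the vesicle coat, was higher under H2O2 (0.46 ± 0.10 (SE, adjusted p = 0.00144)). Tango2 under H2O2 held 22.2 to 25.5 CPM with the lentivirus and 17.4 to 20.1 with the empty vector. Sar1b untreated held 40.6 to 47.8 and 47.6 to 67.5.

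Of 8 tested genes of propeptide processing and cross-linking, 5 were higher and 0 lower untreated and 6 higher and 0 lower under H2O2, with medians of 0.48 and 0.56; without library 11, 7 were higher and 1 lower in either comparison. Loxl3, a lysyl oxidase family member, was at 11.8 to 12.3 CPM in untreated lentivirus and 74.2 to 112 in untreated empty-vector libraries, a change of 3.06 ± 0.11 (SE, adjusted p = 3.43e-11), and of 3.17 under H2O2. Pcolce2, an enhancer of procollagen trimming, was higher by 1.36 ± 0.14 (SE, adjusted p = 1.62e-06) and 1.59, and the trimming enzyme Bmp1 by 0.25 and 0.29. Loxl4 was higher untreated by 1.26 ± 0.36 (SE, adjusted p = 0.00951), but by 0.47 ± 0.04 (SE, adjusted p = 7.67e-09) without library 11, and Pcolce was higher under H2O2 by 0.53 ± 0.12 (SE, adjusted p = 0.00266). Loxl4 under H2O2 held 34.0 to 34.8 CPM with the lentivirus and 43.5 to 48.4 with the empty vector. Pcolce untreated held 231 to 233 and 341 to 353, with 209 in library 11. Among 11 tested collagen receptors, 8 were higher and 2 lower untreated and 6 higher and 2 lower under H2O2, with medians of 0.58 in both. Without library 11 the untreated median of the receptors was 0.27, with 8 higher and 3 lower, and 7 were higher and 3 lower under H2O2. Ddr2, a receptor kinase for fibrillar collagen, was at 77.7 to 86.6 CPM in untreated lentivirus and 412 to 500.2 in untreated empty-vector libraries (2.42 ± 0.07 (SE, adjusted p = 2.78e-12), and 2.11 under H2O2). Cd44 was higher by 1.36 and 1.23, the integrin subunit Itga2 by 1.48 and 1.05, and Mrc2, which takes up collagen for breakdown, by 2.01 and 2.47.

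Of 11 tested fibril partners, 3 were higher and 5 lower untreated and 2 higher and 5 lower under H2O2, with medians of -0.08 and -0.85. Without library 11, 7 were lower and the median was -0.998 untreated, and 6 were lower under H2O2. Thbs2, a matricellular protein, went from 2.13 to 2.71 to 90.5 to 103 CPM untreated (5.33 ± 0.10 (SE, adjusted p = 1.86e-14)) and was higher by 5.19 under H2O2. Dcn, a proteoglycan that binds fibrils, was lower, at 1.70 to 2.46 and 0.0778 to 0.149 CPM untreated (-4.20 ± 0.20 (SE, adjusted p = 6.87e-10)), with a change of -5.14 under H2O2. Nid1, a basement membrane linker, was lower, with changes of -1.59 and -1.77. Fn1, on which fibrils assemble, was higher untreated by 3.83 ± 0.44 (SE, adjusted p = 6.4e-06), and by 3.01 without library 11. Under H2O2 Fn1 held 39.3 to 57.8 CPM with the lentivirus and 213 to 329 with the empty vector. Lum, another fibril-binding proteoglycan, had 55 counts with the lentivirus and 1 with the empty vector under H2O2, a ratio of 55.5 (exact 95% counting interval 9.56 to 2232). Untreated it had 52 and 0 counts, at least 16.6-fold lower, and at this bound as at its fitted value it lies below the list's median. Of 7 tested genes of collagen breakdown, 3 were higher and 2 lower untreated and 3 higher and 3 lower under H2O2, with medians of -0.09 and -0.11. Without library 11 the breakdown genes had 3 higher and 3 lower untreated and 3 and 4 under H2O2. Mmp15, a membrane-bound metalloproteinase, was lower, at 17.1 to 18.9 and 0.778 to 1.67 CPM untreated (-3.82 ± 0.29 (SE, adjusted p = 8.45e-08)), with a change of -3.83 under H2O2. The collagenase Mmp1a had 63 counts with the empty vector and 3 with the lentivirus untreated, a ratio of 21.9 (7.16 to 109.1), and 37 and 4 under H2O2. The collagenase Mmp13 was higher untreated by 2.15 ± 0.39 (SE, adjusted p = 0.000402), and by 1.52 without library 11. Under H2O2 Mmp13 held 2.22 to 3.55 CPM with the lentivirus and 4.66 to 8.46 with the empty vector. Prep, a peptidase that cuts after proline, was higher by 0.43 and 0.46, and the gelatinase Mmp2 was lower under H2O2 (-0.90 ± 0.17 (SE, adjusted p = 0.000725)). Mmp2 untreated held 0.946 to 1.31 CPM with the lentivirus and 0.648 to 0.837 with the empty vector.

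**Figure D5:**
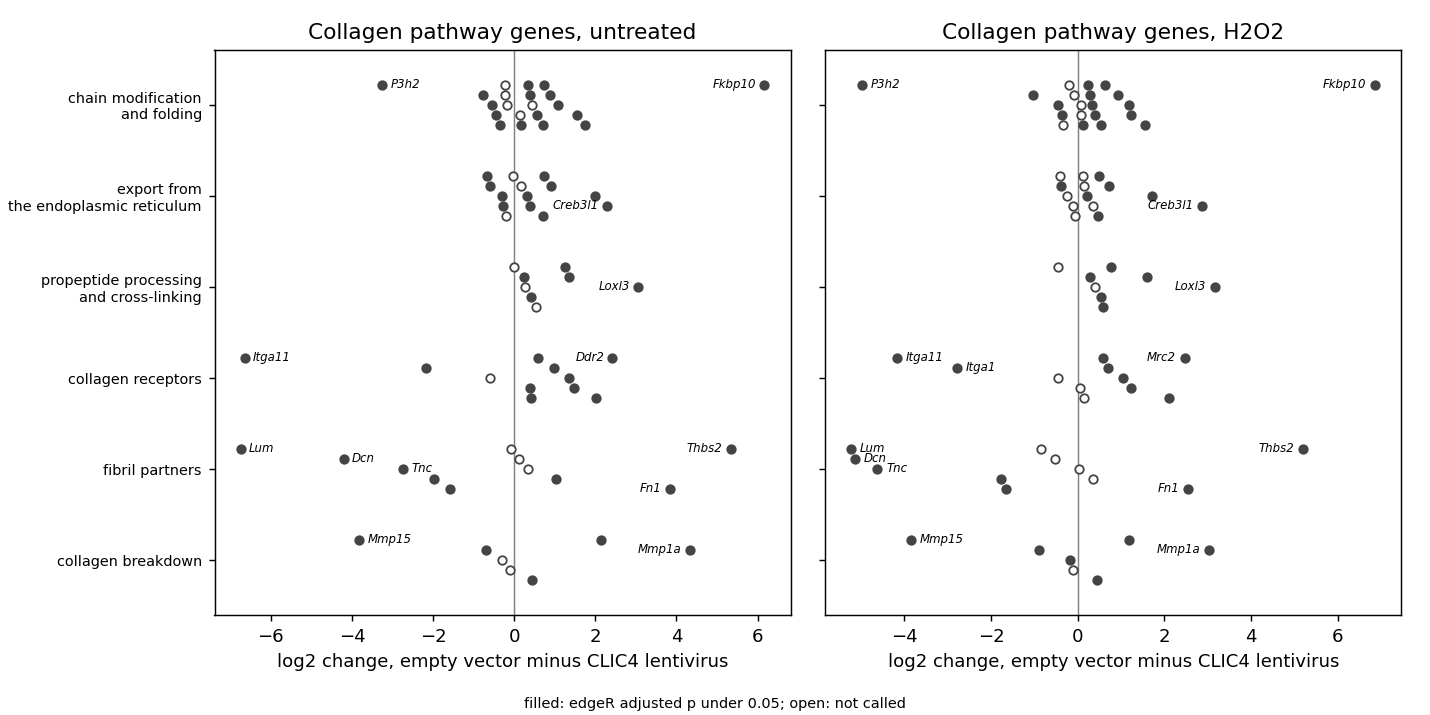
Log2 change, empty vector minus CLIC4 lentivirus, of the tested genes of 6 collagen pathway lists in untreated (left) and H2O2 cells (right), with 1 point a gene, filled where called, and the genes farthest from 0 named. Points of Lum, Itga11, Itga1, Creb3l1 and Mmp1a rest on few counts in 1 vector, so their place on the axis depends on the fit; processing and cross-linking holds no called gene below 0.

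Markers of fibroblasts, which make most fibrillar collagen in tissue, differed between the vectors in both directions. Of the 8 on that list, Col1a1 and Col3a1 are members. The other 6, mostly Pdgfra, summed to 6.22 to 6.95 CPM in untreated and 6.51 to 8.55 in treated lentivirus libraries, and to 15.6 to 16.6 and 14.0 to 16.7 in the empty-vector libraries. Of the 4 markers tested, 1 was higher (Pdgfra) and 3 lower (Lum, Dcn and Col1a1) in both comparisons, with median log2 changes of -2.77 untreated and -3.35 under H2O2. Calls of these markers and those below stand beside 29.0% higher and 24.3% lower of all tested genes untreated. Under H2O2 these shares were 22.1% and 20.0%. Without library 11 they were 37.0% and 37.3% untreated and 36.6% and 37.2% under H2O2. Thy1 was at 0 in 13 libraries and Dpt in 12, and Pdgfrb reached at most 0.0930 CPM. Endothelial markers, mostly Cdh5, summed to 79.9 to 85.9 CPM in lentivirus libraries and 3.53 to 4.73 in empty-vector libraries, 7.78 in library 11. The list did not move as a whole. Pecam1 held 0.366 to 0.567 CPM with the lentivirus and 0.345 to 0.595 with the empty vector, 3.32 in library 11. Kdr and Tek, at most 0.203 CPM, overlapped between the vectors as Pecam1 did. Of the 2 endothelial markers tested, 0 were higher and 1 lower in both comparisons. Immune markers, mostly Cd68, summed to 78.0 to 92.9 CPM with the lentivirus and 223.3 to 258.1 with the empty vector, 373.2 in library 11. Of the 3 immune markers tested, 2 were higher and 0 lower in both comparisons, and 2 higher and 1 lower without library 11. Cd79a went the other way, at 0.258 to 0.640 CPM with the lentivirus and 0.0186 to 0.101 with the empty vector (2.70 in library 11). The leukocyte marker Ptprc reached at most 0.0536 CPM. Epithelial markers summed to 564 to 618 CPM in lentivirus and 921 to 1029 in empty-vector libraries, 1396 in library 11, and the 3 tested of 6 (Krt8, Krt18 and Krt19) were higher in both comparisons, with medians of 1.40 (1.06 without library 11) and 0.99. Krt7, on the same list but not tested, went the other way, at 0.0376 to 0.258 CPM with the lentivirus and 0 to 0.0186 with the empty vector. The part of these markers in the collagen results was not tested.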

How the data were processed

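RNA-seq of 16 libraries of 6DT1 cells was used, 4 in each of 4 groups taken from the sample titles. The submitters' processing notes name cutadapt, STAR, RSEM and the build mm10; the sources used here do not give versions, annotation or strandedness. The authors' deposited table holds counts as whole numbers, which may be rounded RSEM estimates, and the authors scaled the deposited FPKM to gene length and depth. Without strandedness, reads of overlapping genes cannot be told apart.

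The members and lists were chosen with earlier results of these data known. All libraries entered 1 robust quasi-likelihood fit of edgeR 4.0.16 (R 4.3.3, TMM, filterByExpr) with a term for each group, and p-values were adjusted over all 14445 genes tested. The standard error was the size of the log2 change over the square root of F. Alternatives were DESeq2 1.42.0, RLE size factors, no filter, the compared groups alone, voom with library weights, leaving out each library, and limma 3.58.1 on log2(FPKM + 1), with and without a minimum FPKM of 0.5 in 4 libraries, or on log2(FPKM + 0.1) with it. A pseudocount makes the changes of low genes look smaller. Between libraries of a group the chi-square per degree of freedom was at least 4.79, so none was counted as a duplicate. The fit was also run on simulated counts, but no result of that run is given here. Nothing is therefore concluded from it about the fit to these libraries. Every tested member is named, with values per library for members called in both vector comparisons or with a group mean of at least 10 CPM; of each pathway list, up to 4 called genes with the smallest adjusted p are named, and P3h2 was added after its values were seen. Positions are from GENCODE vM21 (mm10). Figures were drawn with matplotlib 3.10.9.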

Additional observations from a re-analysis of the deposited data

Results flagged for a closer look

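In 9 of 112 tests of a gene in a group of 4 libraries, the highest or lowest library lay farther from the rest than Dixon's criterion allows, which chance gives in about 5% of groups. Library 11 accounted for 5 of them in the untreated empty-vector group: Col8a1 at 89.3 CPM where the others held 4.52 to 4.92, Col14a1 at 1.09 (others 0.0372 to 0.118), Col4a1 at 1.58 (0.558 to 0.632), Col4a2 at 2.49 (0.794 to 0.988) and Col6a3 at 3.91 (8.11 to 8.61). In treated empty-vector cells Col18a1 was low in library 16 at 428 CPM (others 492 to 503), and Col1a2 was high in library 15 at 0.624 (others 0.371 to 0.397). In treated lentivirus cells Col5a3 was high in library 8 at 42.7 CPM (others 34.9 to 36.0), and Col9a1 was high in library 6 at 0.0721 (others 0.0159 to 0.0188).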

How the results depend on the processing

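In untreated cells the 14 higher members became 5 with limma on log2(FPKM + 1), 5 on log2(FPKM + 0.1) and 9 with the compared groups alone, which tested 16, 16 and 24 of the 28 members. Under H2O2 the 10 higher became 5 on log2(FPKM + 1), and the 11 lower became 7 on either FPKM scale, with 16 tested. The share of all genes called in these vector fits is not given here, so the counts cannot be set against it. For H2O2 in lentivirus cells the 0 higher became 1 with the compared groups alone, where 121 of all genes were called. Leaving out each library gave 13 to 14 higher and 10 lower untreated, 9 to 11 higher and 9 to 12 lower under H2O2, and 0 in either direction for H2O2 in either kind of cell and for the difference of the responses. For the vector comparisons the share of all genes called is given only without library 11, 74.4% untreated and 73.8% under H2O2. Of 896 single changes recomputed without 1 library, 851 kept direction and call, 37 lost the call, 5 gained it and 3 changed sign without a call before or after: untreated Col5a1 (range -0.156 to 0.0358, the last without library 11), untreated Col16a1 (-0.197 to 0.0132, likewise) and Col9a3 under H2O2 (-0.0678 without library 15, to 0.578). Of 392 under other settings, 358 kept both, 24 lost the call, 8 gained it and 2 changed sign. Untreated Col5a1, not called, was 0.0265 with voom and library weights, and Col4a2 in untreated cells was -0.00301 on unfiltered log2(FPKM + 1), with limma's adjusted p = 1. Among the lost calls, every limma fit on FPKM lost untreated Col7a1 (adjusted p of 0.125 to 0.198) and untreated Col6a3 (0.0904 to 0.149). The H2O2 call of Col8a1 was lost with limma on log2(FPKM + 1), filtered and unfiltered (adjusted p of 0.0858 and 0.140). Spread between libraries of a group, as edgeR's biological coefficient of variation, was 23.1% with library 11 and 5.28% without. Col9a1, Col15a1, Col22a1 and the members under the filter rest on few counts in 1 vector or more. No paired analysis was possible because no library number is shared between groups.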
